A study of Bos taurus with 9 samples.

Results

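The genes described here are 10 interferon-induced genes, IFITM1, IFITM2, IFITM3, IFI6, IFI27, IFI35, IFI44, IFI44L, RTP4 and PLAC8, followed through cultured bovine cells, labelled endometrial epithelial, that were given DPPA3 mRNA. They were chosen by symbol from a longer list of interferon-stimulated genes, after the levels of such genes in the transfected cells were known. Their differences between transfected and other cells are therefore a description of the choice and no test of it. All 10 symbols were found among the 30641 in the count table, and 7 of the 10 passed a filter on low counts. IFITM2, IFI44 and PLAC8 did not pass and are given as counts. Several of the 10, such as IFITM1, IFI6 and IFI27, encode small membrane proteins, but IFI35, IFI44 and IFI44L encode cytoplasmic proteins, so membrane location does not unite them.

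RNA was sequenced from 9 libraries in 3 groups. The DPPA3 mRNA group (n = 3) received 500 ng of DPPA3 mRNA, made in vitro, together with the transfection reagent jetMESSENGER, 24 hours after the cells were seeded. The reagent alone group (n = 3) received jetMESSENGER without RNA at that time, and the untreated control group (n = 3) received neither. No group received another mRNA, so an effect of the DPPA3 sequence and an effect of any mRNA made in vitro cannot be told apart. Whether the replicates came from different animals or culture dishes is not stated in the labels. The spread behind each p-value may therefore be technical, and it speaks for these samples only.

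Interferons are secreted proteins that bind cell surface receptors, activate JAK kinases and STAT factors, and switch on a broad set of antiviral genes. In cattle and other ruminants the early conceptus secretes interferon tau, the signal of pregnancy recognition, and the endometrium answers with many of these genes. IFITM proteins sit in the cell's outer and endosomal membranes and hinder virus entry. IFI6 and IFI27 are small hydrophobic proteins of intracellular membranes, RTP4 is a chaperone of membrane receptors, and PLAC8 is a small cysteine-rich protein named for its placental expression. Human IFITM1 is also used as a marker of endometrial stroma.

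The libraries held between 3890134 and 13258036 counts, the smallest being reagent alone replicate 1. DPPA3, the transfected transcript, had 9526, 19312 and 18096 CPM (read counts divided by scaled library size) in DPPA3 mRNA replicates 1 to 3. It had 0 counts in each reagent alone library, and 0, 2 and 1 counts in the untreated controls. Keratin genes of epithelium were abundant in all 9 libraries, KRT8 at 3802 to 4995 CPM, and CDH1 stood at 37.6 to 58.65 CPM. EPCAM stayed under 0.783 CPM and GRHL2 was at 0 throughout. Collagen genes of stroma were abundant as well, COL1A1 at 8085 to 18920 CPM. Among other stromal markers PDGFRB stood at 6.41 to 17.2 CPM, COL6A3 at 3.57 to 11.4 CPM and THY1 at 0.18 to 1.29 CPM. Both marker lists were thus mixed, and the epithelial label was only partly matched by its markers. The leukocyte gene PTPRC was at 0 in every library. In bulk RNA, more cells expressing a gene and more of its RNA per cell cannot be told apart.

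DPPA3 mRNA replicate 2 stood apart from the other 2 transfected libraries in the genes described here. Summed over the 10 genes, the level was 68.5, 867 and 211 CPM in DPPA3 mRNA replicates 1 to 3. The sum was 27.9, 35.6 and 50.7 CPM in reagent alone replicates 1 to 3, and 26.6, 34.6 and 36.5 CPM in the untreated controls. The transfected libraries lay above all others in this sum, while reagent alone and untreated control overlapped. Most of the difference between the transfected mean and the other means lay in DPPA3 mRNA replicate 2. Fitted values of these genes are therefore given with and without that library.

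**Figure D1:**
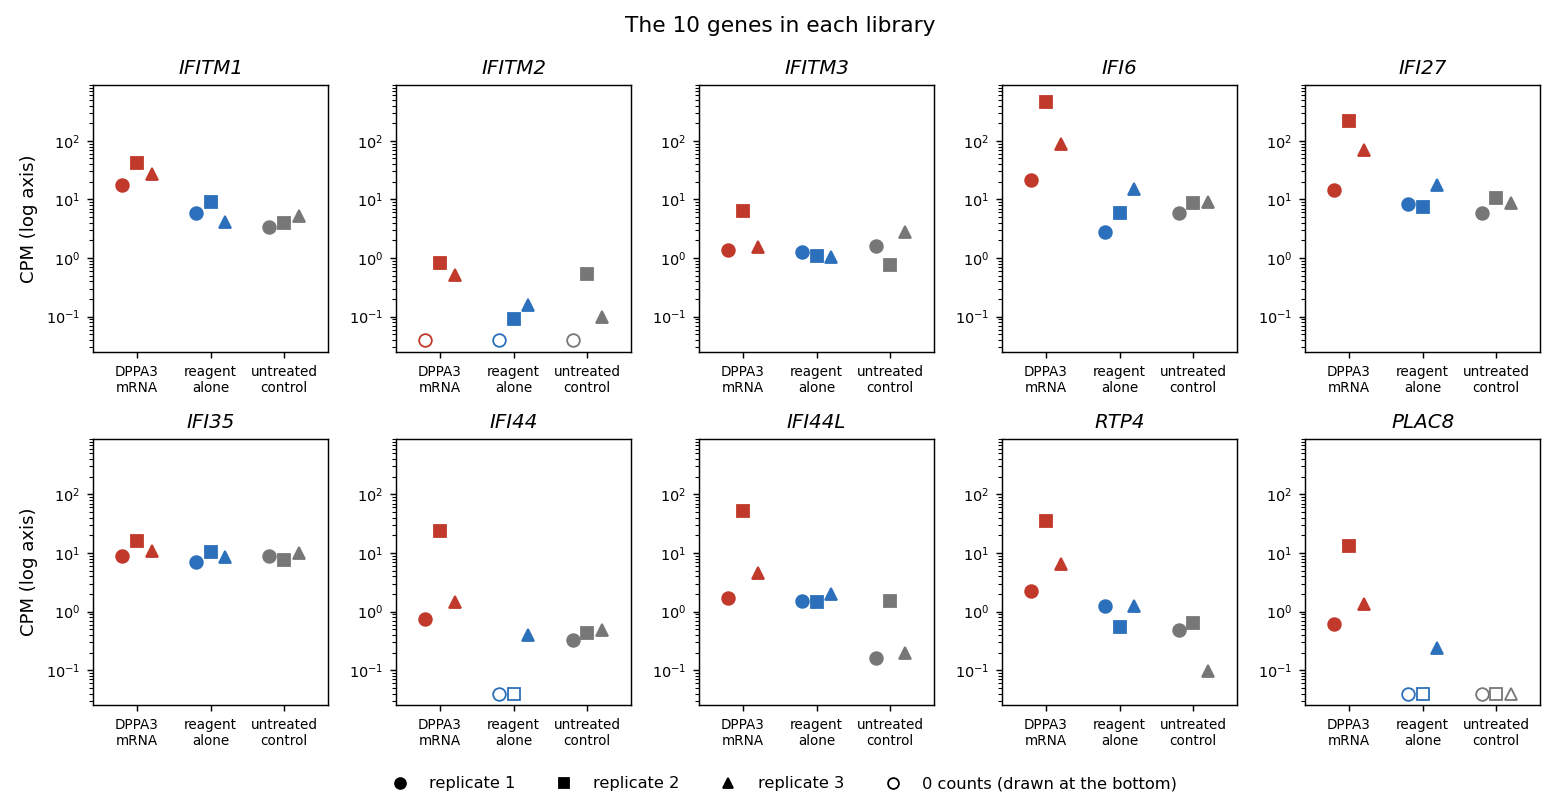
Level of each of the 10 genes in CPM (log axis) in each library, with DPPA3 mRNA, reagent alone and untreated control from left to right and a marker shape for each replicate number. Open markers at the bottom stand for 0 counts. DPPA3 mRNA replicate 2 (square) was the highest library for every gene, at 461 CPM for IFI6 and 42.3 CPM for IFITM1.

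IFITM1, which acts mainly at the plasma membrane, varied less among the transfected libraries than most members, with an SD of 43.4% of the mean. It stood at 17.4, 42.3 and 27.0 CPM across DPPA3 mRNA replicates 1 to 3, next to 5.98, 8.89 and 4.10 CPM in reagent alone replicates 1 to 3 and 3.38, 4.01 and 5.18 CPM in untreated control replicates 1 to 3. All 3 transfected libraries lay above all 6 others. The mean was 28.9 ± 12.5 CPM with DPPA3 mRNA, against 6.32 ± 2.42 CPM under reagent alone and 4.19 ± 0.91 CPM without treatment (SD, n = 3 each). The log2 fold change was 2.19 (SE 0.37) over reagent alone and 2.77 (SE 0.38) over untreated control. Without DPPA3 mRNA replicate 2 these values were 1.81 and 2.39.

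IFITM3, the family member best known for blocking viruses in endosomes, behaved otherwise in the row under that symbol. A separate row, IFITM3_1, is described below. It stood at 1.36, 6.41 and 1.53 CPM across DPPA3 mRNA replicates 1 to 3, next to 1.25, 1.08 and 1.02 CPM under reagent alone and 1.61, 0.76 and 2.74 CPM without treatment. All transfected libraries lay above reagent alone, but replicate 2 alone was high among them, and the other 2 lay inside the range of the untreated controls. The log2 fold change was 1.48 (SE 0.71) over reagent alone and 0.84 (SE 0.68) over untreated control. Without DPPA3 mRNA replicate 2 it was 0.39 over reagent alone and -0.24 over untreated control, where the direction turned.

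IFITM2 was close to the limit of counting, with 0, 9 and 6 counts in DPPA3 mRNA replicates 1 to 3, 0, 1 and 2 counts with reagent alone, and 0, 5 and 1 counts in untreated cells. The groups overlapped in both comparisons. The ratio of pooled counts scaled to depth was 3.86 over reagent alone (exact 95% interval 1.09 to 20.8, counting error only) and 1.78 over untreated control (0.652 to 5.59). From DPPA3 mRNA replicates 1 and 3 alone these ratios were 2.22 (0.475 to 13.7) and 1.03 (0.274 to 3.83). The count table also held a separate row named IFITM3_1, with 6, 10 and 10 counts in the transfected libraries, 0, 0 and 1 with reagent alone, and 1, 4 and 1 in untreated cells. Unlike the row IFITM3, it lay higher in every transfected library (0.45, 0.90 and 0.85 CPM) than in any other library. The highest of the others was untreated control replicate 2, at 0.43 CPM, and all these values rest on few counts. RefSeq gives IFITM3 as a synonym of 2 separate bovine loci, LOC777594 and LOC282255. Which row stands for which locus is not given in the sources used here. Reads of these short, similar genes may be split between copies or dropped, so the separate IFITM values are uncertain.

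IFI6, an inhibitor of apoptosis and of flavivirus replication, stood at 21.3, 461 and 88.8 CPM across DPPA3 mRNA replicates 1 to 3, next to 2.74, 5.84 and 15.3 CPM under reagent alone and 5.80, 8.66 and 9.09 CPM without treatment. The transfected libraries lay above all others, and reagent alone replicate 3 came closest to the lowest of them. The fitted log2 difference was 4.47 (SE 0.88) over reagent alone and 4.58 (SE 0.89) over untreated control. Without DPPA3 mRNA replicate 2 it was 2.71 and 2.80.

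IFI27, also called ISG12(A), is a small hydrophobic protein whose transcript is known as interferon-responsive in the ruminant uterus. It stood at 14.4, 217 and 68.6 CPM across DPPA3 mRNA replicates 1 to 3, next to 8.22, 7.37 and 17.9 CPM under reagent alone and 5.80, 10.6 and 8.70 CPM without treatment. DPPA3 mRNA replicate 1 lay below reagent alone replicate 3, so the first pair of groups overlapped, while all transfected libraries lay above the untreated controls. In the fit IFI27 had a log2 fold change of 3.13 (SE 0.70) over reagent alone and 3.56 (SE 0.72) over untreated control, and 1.87 and 2.30 without DPPA3 mRNA replicate 2. Among the 7 tested genes IFI6 and IFI27 were the most alike across the 9 libraries, with a Pearson correlation of 0.97 in log2 CPM. The 21 pairs ranged from 0.49, for IFITM3 with IFI44L, to that value, with a median of 0.83. All pairs share the same libraries and the same high replicate, so these are descriptions only.

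IFITM1 did not follow IFI6 in proportion. The ratio of IFI6 to IFITM1 counts stood at 1.22, 10.9 and 3.29 across DPPA3 mRNA replicates 1 to 3, 0.458, 0.657 and 3.73 with reagent alone, and 1.71, 2.16 and 1.76 in untreated cells. Reagent alone replicate 3 had the highest IFI6 and the lowest IFITM1 of its group.

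RTP4, a chaperone that brings receptors to the cell surface and is also known to restrict flaviviruses, had low levels outside the transfected cells. It stood at 2.26, 35.1 and 6.54 CPM across DPPA3 mRNA replicates 1 to 3, next to 1.25, 0.54 and 1.26 CPM under reagent alone and 0.48, 0.65 and 0.098 CPM without treatment. The groups did not overlap in either comparison. In the fit its log2 fold change was 3.88 (SE 0.88) over reagent alone and 5.16 (SE 0.99) over untreated control, and 2.13 and 3.42 without DPPA3 mRNA replicate 2. RTP4 passed the filter only through the transfected libraries. In 2 of the other 6 libraries it reached the level of 0.91 CPM that the filter asks of at least 3 libraries.

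IFI44 and IFI44L are related cytoplasmic proteins whose genes lie next to each other in the RefSeq annotation. IFI44L stood at 1.73, 51.3 and 4.50 CPM across DPPA3 mRNA replicates 1 to 3, next to 1.49, 1.44 and 1.97 CPM under reagent alone and 0.16, 1.52 and 0.20 CPM without treatment. DPPA3 mRNA replicate 1 lay within the reagent alone range, and untreated control replicate 2 lay far above the other untreated libraries, with 14 of the 17 counts of its group. The log2 fold change was 3.51 (SE 1.03) over reagent alone, and 0.91 without DPPA3 mRNA replicate 2. Over untreated control it was 4.84 (SE 1.15), with 2.25 without DPPA3 mRNA replicate 2 and 6.62 without untreated control replicate 2.

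IFI44 had 10, 267 and 17 counts in DPPA3 mRNA replicates 1 to 3, 0, 0 and 5 counts with reagent alone, and 2, 4 and 5 counts in untreated cells. The transfected libraries lay above all others once scaled to depth, and replicate 2 held 267 of their 294 counts. DPPA3 mRNA replicate 1, at 0.754 CPM, lay barely above 0.747 CPM, the level of 3 counts in reagent alone replicate 1. The ratio of pooled counts was 45.3 over reagent alone (exact 95% interval 19.2 to 141, counting error only) and 19.0 over untreated control (10.46 to 38.5). From DPPA3 mRNA replicates 1 and 3 alone these ratios were 6.003 (2.28 to 20.0) and 2.52 (1.21 to 5.62).

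PLAC8 is the member with a named tie to early development, as it is expressed in placenta and, in cattle, in the early embryo and the pregnant endometrium. It had 8, 148 and 16 counts in DPPA3 mRNA replicates 1 to 3, 0, 0 and 3 counts with reagent alone, and 0 counts in each untreated library. Every transfected library had a higher measured PLAC8 level than any other library, and most of the counts came from replicate 2. DPPA3 mRNA replicate 1, at 0.60 CPM, lay under 0.747 CPM, the level of 3 counts in reagent alone replicate 1. Its separation from that small library, with 0 counts, is therefore not secure. The ratio of pooled counts over reagent alone was 44.2 (exact 95% interval 14.9 to 216, counting error only). From DPPA3 mRNA replicates 1 and 3 alone it was 8.89 (2.70 to 46.1). With 3 counts per untreated library taken as the floor, the mean of the 3 transfected libraries was at least 13.9-fold higher, and that of replicates 1 and 3 alone at least 2.68-fold higher. A second row, PLAC8_1, held 1 count in all, and RefSeq gives PLAC8 as a synonym of both PLAC8A and PLAC8B, so the locus behind the row is uncertain.

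IFI35, a leucine zipper protein that binds NMI, differed least. It stood at 8.75, 16.1 and 10.95 CPM across DPPA3 mRNA replicates 1 to 3, next to 6.97, 10.3 and 8.43 CPM under reagent alone and 9.02, 7.47 and 9.88 CPM without treatment. DPPA3 mRNA replicate 1 lay inside the range of both other groups. Its log2 fold change was 0.46 (SE 0.29) over reagent alone and 0.44 (SE 0.29) over untreated control, and 0.18 and 0.16 without DPPA3 mRNA replicate 2.

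**Figure D2:**
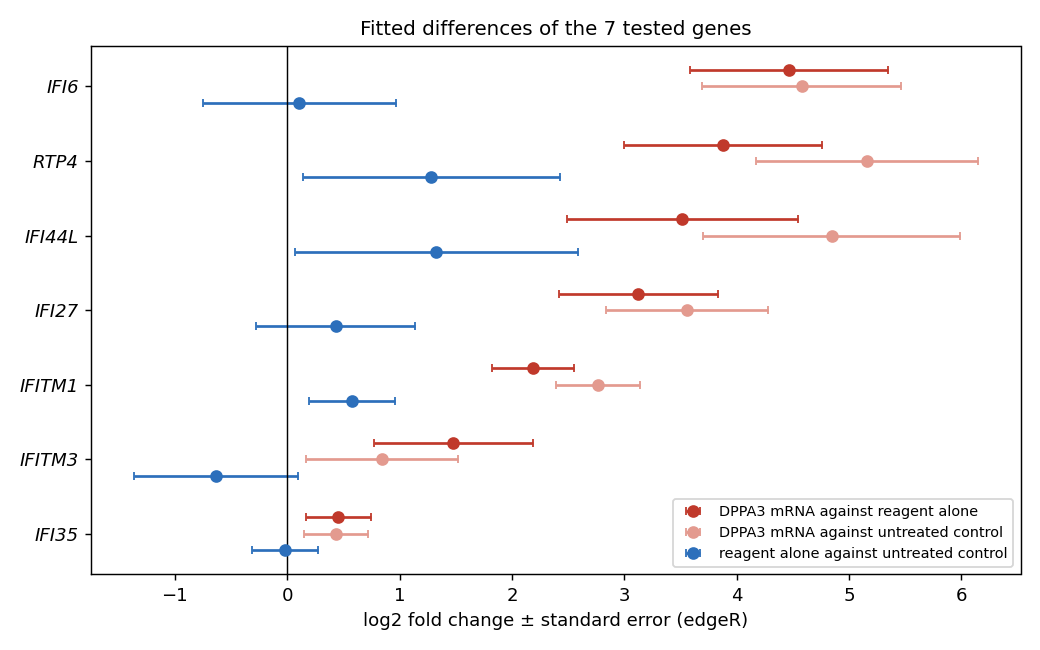
Log2 fold change with its standard error for the 7 genes that passed the filter, from edgeR, for DPPA3 mRNA against reagent alone, DPPA3 mRNA against untreated control and reagent alone against untreated control. IFI6 lay highest against reagent alone, at 4.47, and IFI35 lowest, at 0.46, and the reagent alone values lay between -0.64 and 1.33.

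In the fit across 14874 genes, a gene was called at an adjusted p under 0.05. For DPPA3 mRNA against reagent alone 0 of the 7 tested members were called by edgeR's quasi-likelihood test, where 0.00672% of all tested genes were called higher. That share is 1 gene, the transfected DPPA3 itself. The smallest adjusted p was 0.312, for IFITM1, and 5 of the 7 had an unadjusted p under 0.05, against 1.67% of all genes. DESeq2 called 2 of the 7, IFITM1 (adjusted p 6.9e-05) and IFI6 (0.034), against 0.0606% of all genes called higher. Without DPPA3 mRNA replicate 1 the filter let 9 members through, and edgeR called 4 of them. These were IFI6 and IFI27 (adjusted p 0.0096 for both), IFITM1 (0.017) and RTP4 (0.028), among 20 of 15337 genes in all (0.13%). Without any other single library edgeR called 0 members. With a replicate block, given as an alternative only, edgeR called 1 member, IFITM1 (adjusted p 0.039), among 2 genes in all.

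For DPPA3 mRNA against untreated control IFITM1 was the 1 member called higher by edgeR (adjusted p 0.037), where 0.0134% of all tested genes were. That share is 2 genes, the transfected DPPA3 and IFITM1 itself. Of the 7 tested members 5 had an unadjusted p under 0.05, against 3.91% of all genes. The call of IFITM1 was lost without DPPA3 mRNA replicate 2 (adjusted p 0.11) or 3 (0.076), and without untreated control replicate 1 (0.091), 2 (0.19) or 3 (0.26). Fitting just the groups compared (0.085) or leaving DPPA3 out (0.075) ended the call as well. Over these 7 alternatives the log2 fold change of IFITM1 lay between 2.39 and 2.95. Without DPPA3 mRNA replicate 1, with 9 members through the filter, the adjusted p of IFITM1 was 0.0051. IFI27, IFI6, RTP4 and IFI44L were then called too (0.0051, 0.0062, 0.0090 and 0.036), among 26 of 15337 genes in all (0.17%). DESeq2 called IFITM1, IFI6 and RTP4 (adjusted p 6.7e-09, 0.022 and 0.0089), against 0.073% of all genes called higher. RTP4 had passed the filter only through the transfected libraries. All members were chosen with such differences known, so no member's call is support. With a replicate block IFITM1 was again the 1 member called (adjusted p 0.0055), among 7 genes in all, against 2 without it. Both comparisons use the same transfected libraries, so their values are not independent of each other.

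The transfected and reagent alone libraries were fully separated, the transfected ones above, for 6 of the 10 genes, IFITM1, IFITM3, IFI6, IFI44, RTP4 and PLAC8. Of the 7 tested it was 4, where 4.91% of all tested genes showed this. Against untreated control it held for 7 of the 10, without IFITM3 but with IFI27 and IFI44L, and for 5 of the 7 tested, where 4.24% of all tested genes showed it. These genes were picked with such differences in view, so the shares are given as background and nothing is read from them. For PLAC8 and IFI44 the separation from reagent alone replicate 1, the smallest library, rests on a count of 0 there and is not secure.

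The 3 transfected libraries kept the same order in all 10 genes, replicate 1 lowest and replicate 2 highest, an order found in 22.4% of all tested genes. The spread differed greatly between genes. The highest transfected library exceeded the lowest 32.0-fold for IFI44, 29.6-fold for IFI44L, 22.2-fold for PLAC8, 21.7-fold for IFI6, 15.5-fold for RTP4 and 15.1-fold for IFI27. It exceeded the lowest 4.73-fold for IFITM3, 2.43-fold for IFITM1 and 1.84-fold for IFI35. The transfected DPPA3 transcript itself differed 2.03-fold, and replicates 2 and 3 held nearly the same level of it, 19312 and 18096 CPM. IFI6 was at 461 CPM in the first of these libraries and 88.8 CPM in the second. What sets replicate 2 apart was not tested.

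**Figure D3:**
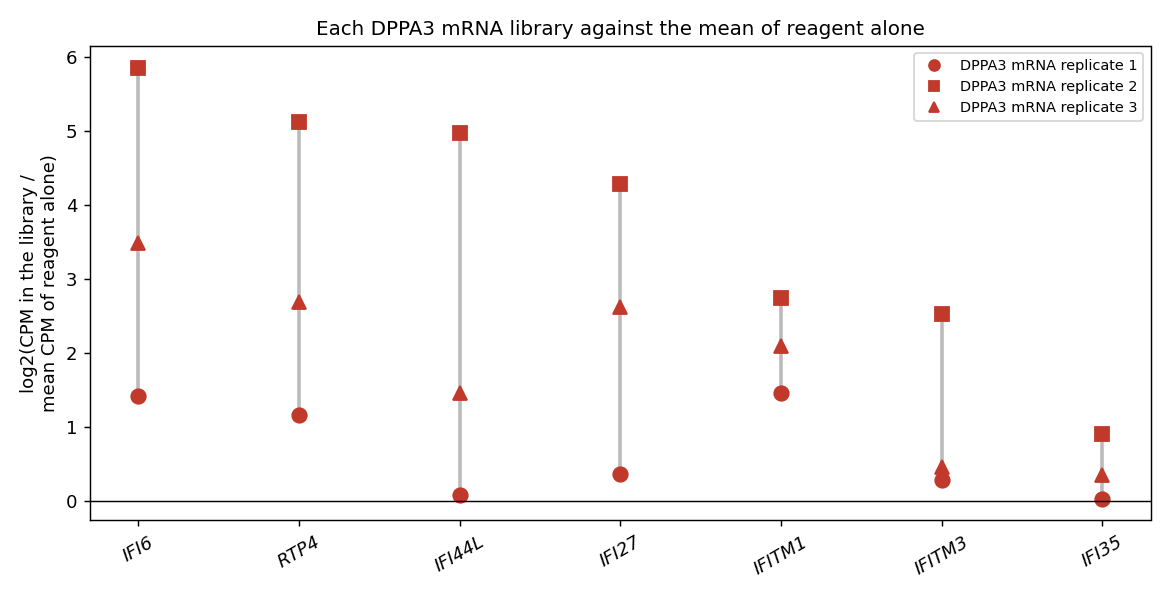
Log2 ratio of the level in each DPPA3 mRNA library to the mean of the 3 reagent alone libraries, for the 7 tested genes. The grey bar joins the lowest and highest library, from 1.42 to 5.86 for IFI6 and from 1.46 to 2.74 for IFITM1, with replicate 1 lowest and replicate 2 highest in each.

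**Figure D4:**
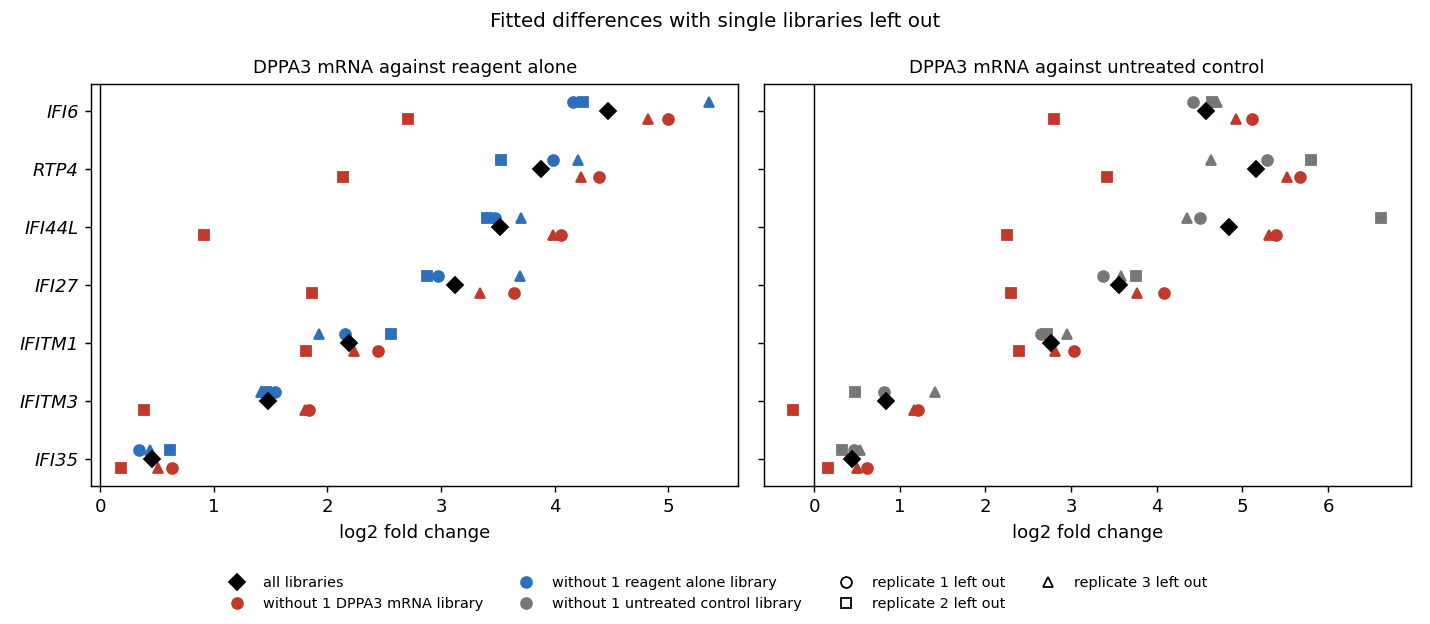
Log2 fold change of the 7 tested genes with all libraries (diamonds) and with each single library omitted. The left panel sets DPPA3 mRNA against reagent alone and the right panel against untreated control. Leaving out DPPA3 mRNA replicate 2 gave the lowest value for every gene in both panels, 0.91 for IFI44L against reagent alone.

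Reagent alone was set against untreated control to show what the reagent did without mRNA. By edgeR 0 of the 7 tested members were called, where 0.0% of all tested genes were called higher or lower, and 0 of the 7 had an unadjusted p under 0.05, against 10.2% of all genes. DESeq2 also called 0 members, and 0.0135% of all genes lower. The ranges of the groups overlapped for all 10 genes, while 6.92% of all tested genes had every reagent alone library above every untreated one. IFITM1 had a log2 fold change of 0.58 (SE 0.38, edgeR adjusted p 0.51), IFI6 of 0.11 (SE 0.86, 0.96) and IFI27 of 0.43 (SE 0.71, 0.79). IFI44L had 1.33 (SE 1.26, 0.63) and RTP4 1.28 (SE 1.14, 0.61), both from few counts. IFITM3 had -0.64 (SE 0.73, 0.70) and IFI35 -0.019 (SE 0.29, 0.98). Reagent alone replicate 3 held the highest IFI6 and IFI27 of its group, and without it their values were -0.77 and -0.13. A standard error of 0.86 or more leaves several-fold differences of IFI6, IFI44L and RTP4 undetectable in these libraries.

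Other lists show what moved beside these genes. Over reagent alone the median log2 fold change of the 7 tested members was 3.13, against 0.0027 for all genes tested, and 1.81 without DPPA3 mRNA replicate 2. Of 70 other listed interferon-stimulated genes 55 were tested, and 0 were called. Their median was 1.15, and 54 lay above 0, where 7503 of all 14874 tested genes did. This list too was chosen with earlier results of these data known, so its values are a description. The genes of this list with the smallest p were RSAD2, OAS1X, TNFSF10 and MX1. In DPPA3 mRNA replicates 1 to 3 MX1 stood at 27.9, 669 and 116 CPM, and RSAD2 at 8.8, 225 and 7.2 CPM. Replicate 2 was thus highest for both, and the list's median without it was not computed. RSAD2 was at 0, 0.63 and 1.02 CPM under reagent alone and 0, 0 and 0.39 CPM without treatment. Like RTP4, it thus passed the filter only through the transfected libraries. The list of interferons, their receptors, kinases and sensors had 30 tested genes, 0 called and a median of -0.0025. Its smallest p belonged to IRF1, a transcription factor that is itself interferon-induced, at 0.82 (SE 0.26, edgeR adjusted p 0.9998), and CGAS, a DNA sensor, at 1.01 (SE 0.40, adjusted p 0.9998). IRF3 and IFNAR2 came next, at 0.32 and -0.38. Of 12 interferon genes listed, 10 were in the table, 6 of them with 0 counts in all 9 libraries, and 2 were tested, IFNE and IFNT3. IFNE had 76 counts over the DPPA3 mRNA libraries, 45 over reagent alone and 38 over untreated control, and IFNT3 had 30, 22 and 34. These counts are not scaled to depth. The fitted log2 fold changes of IFNE and IFNT3 were 0.36 and -0.23 over reagent alone, and 0.57 and -0.76 over untreated control.

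Relatives of the members by protein family gave another view. Of 20 such genes 7 were tested and 0 were called, with a median log2 fold change of -0.026 over reagent alone. IFI27L2, a neighbour and relative of IFI27, measured -0.026 (SE 0.25), beside 3.13 for IFI27 itself. PLAC8L1 measured 0.098 (SE 0.57). TMEM265, PRRT2, SYNDIG1L and TMEM91, which share the membrane-spanning CD225 region with IFITM proteins, measured 0.33, -0.068, -0.60 and -0.87, each with an adjusted p of 0.9998 in edgeR. NMI, the relative and partner of IFI35 and itself listed as interferon-stimulated, had 0.58 (SE 0.37, adjusted p 0.9998). Whether relatives differ from the members was not tested.

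**Figure D5:**
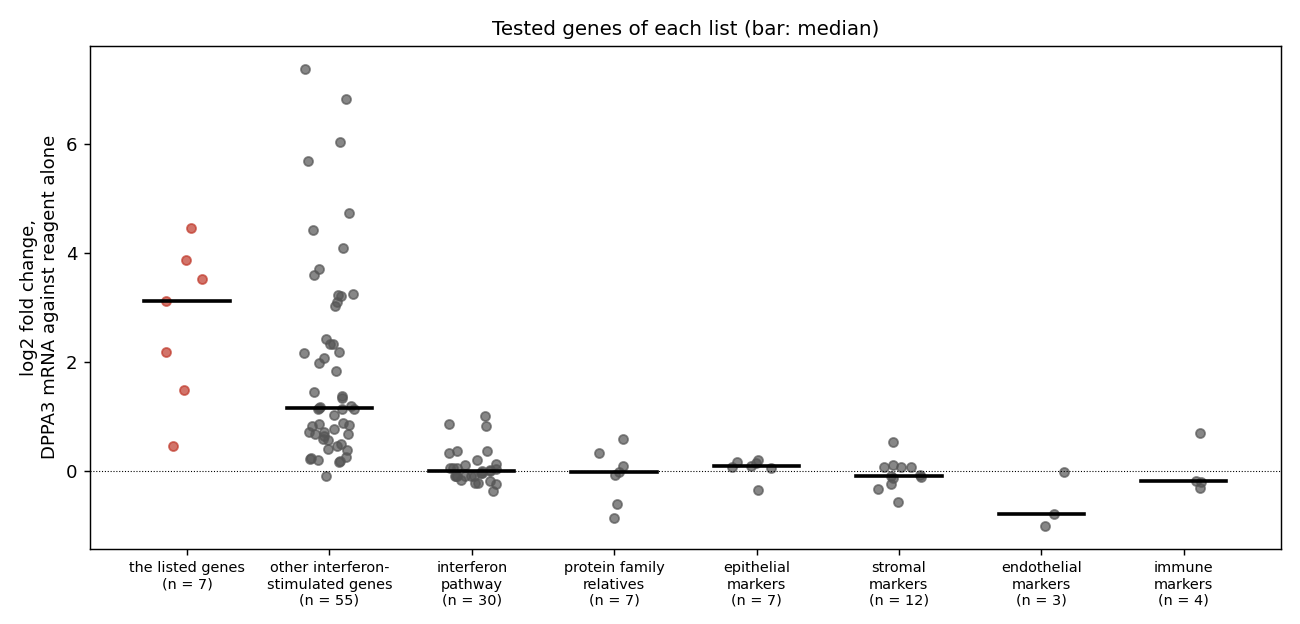
Log2 fold change of DPPA3 mRNA against reagent alone for each tested gene of each list, with the median as a bar. The 7 listed genes had a median of 3.13 and the 55 other interferon-stimulated genes 1.15, while the medians of the interferon pathway and the family relatives were -0.0025 and -0.026.

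Markers of other cell types were examined because IFITM1 and PLAC8 are also expressed by stromal or immune cells. The 13 immune markers summed to 5.05 to 9.34 CPM with DPPA3 mRNA, 7.72 to 9.79 CPM under reagent alone and 5.96 to 9.53 CPM without treatment. PTPRC, CD2, MS4A1 and ITGAM were at 0 in every library, and 0 of the 4 tested markers were called. The 12 stromal markers summed to 29560 to 34780 CPM, 28000 to 36090 CPM and 30480 to 46450 CPM in the same order of groups, with 0 of 12 called and a median log2 fold change of -0.088 over reagent alone. The epithelial and endothelial lists had 7 and 3 tested markers, 0 called, and medians of 0.091 and -0.79. The 13 epithelial markers summed to 8795 to 9794 CPM with DPPA3 mRNA and 8591 to 8946 CPM with reagent alone, against 8930 to 11060 CPM in the untreated controls.

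The genes most like IFITM1 and IFI6 were sought by the Pearson correlation of log2 CPM over the 9 libraries. For IFI6 they were MX1 (0.97), ISG15 (0.97), LOC100298356 (0.96), OAS1Y (0.96) and USP18 (0.96), and all but the LOC gene are well known as interferon-stimulated. For IFITM1 they were SLC16A4 (0.93), DPPA3 itself (0.92), LOC512486 (0.92), RSAD2 (0.91) and CYP2R1 (0.91). The 2 lists had no gene in common. SLC16A4, a monocarboxylate transporter, stood at 2.56, 2.62 and 3.82 CPM across DPPA3 mRNA replicates 1 to 3, next to 1.25, 1.44 and 1.02 CPM under reagent alone and 0.48, 0.65 and 0.98 CPM without treatment. It thus separated the transfected libraries from the others, as IFITM1 did, but was not highest in replicate 2. These correlations rest on shared libraries, are the highest among all tested genes, and carry no test.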

How the data were processed

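The authors deposited raw read counts per gene symbol for 9 libraries. Per the labels, libraries were prepared from DNase-treated TRIzol RNA using an IDT xGen kit. Trimmomatic, HISAT2, HTSeq and edgeR are named, without versions, per the submitters' processing notes. Not given in the sources used here: genome build, annotation and strand setting. Overlapping genes therefore cannot be told apart. Of the symbols, 80.1% matched RefSeq (ARS-UCD2.0), used for names and neighbours only.

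Genes were filtered with filterByExpr (14874 kept), scaled by TMM and fitted over all 3 groups with edgeR 4.0.16 in R 4.3.3 (glmQLFit, glmQLFTest), with Benjamini-Hochberg adjustment over all genes. Standard errors are the log2 fold change over the root of F. The floor was 3 counts, 0.226 to 0.747 CPM per library, and intervals cover counting error only. Replicates differed by more than sampling noise (chi-square per degree of freedom at least 13.4). The members and lists were chosen with earlier results of these data known. All members were named, with the 5 genes outside them most correlated with IFITM1 and with IFI6, tested relatives, and up to 4 genes with the smallest p of other lists. Other markers and pooled ratios, with and without DPPA3 mRNA replicate 2, were chosen after seeing the data. Deviations of DPPA3 mRNA and untreated control libraries of equal number correlated at 0.31, 0.30 and 0.13, all over 0.1, so the numbers were taken as pairs from the data, not the labels. The main fit nevertheless had no replicate block, and values from a fit with the block are named as such. The fit was repeated with a replicate block, without DPPA3, without each library, on only the groups compared, without the filter, with size factors from DESeq2 1.42.0 and as its Wald test. The scripts were tested on simulated data. A planned promoter motif search was not made.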

Additional observations from a re-analysis of the deposited data

How the results depend on the processing

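For DPPA3 mRNA against reagent alone, where 0 members were called, DESeq2 called 2 and no filter 7 of all 10 (0.297% of all genes). The replicate block called 1, IFITM1 (log2 fold change 2.20, adjusted p 0.039), where 0.0134% of all genes were called. Fits with single libraries left out called 0 to 4, of 7 or 9 members tested. For DPPA3 mRNA against untreated control, where 1 was called, DESeq2 called 3 and no filter 7 of all 10 (0.31% of all genes). Only the groups compared gave 0 (IFITM1 adjusted p 0.085), and so did DPPA3 left out (0.075). Fits with single libraries left out called 0 to 5, of 7 or 9 members tested. Leaving DPPA3 out takes the gene with the smallest p out of the test, which by itself raises that of IFITM1. The cause of the other changes was not tested. The adjusted p of IFITM1 ranged from 1.3e-07 to 1.0 and from 3.5e-11 to 0.26 in the 2 comparisons. The replicate block changed no member's call against untreated control (IFITM1 0.0055). It moved the members' median there from 3.56 to 3.19, and IFI6 from 4.58 to 4.03 (edgeR adjusted p 0.29 to 0.070). Equal numbers of DPPA3 mRNA and reagent alone correlated at 0.13, 0.10 and 0.077, not all over 0.1, so they were not taken as pairs. In both comparisons the block stayed an alternative to the main fit. Leaving out single libraries moved the members' median to between 1.81 and 3.69 against reagent alone, 2.30 and 4.08 against untreated control, and 0.0019 and 0.58 for reagent alone, lowest without DPPA3 mRNA replicate 2 and, in the last, without reagent alone replicate 3. For reagent alone against untreated control 0 members were called under every alternative (0.081% of all genes with no filter), and some small values changed sign, IFI6 to -0.015 with the replicate block, and to between -0.77 and 0.42 over single libraries left out. IFI27 then ranged from -0.13 to 0.68, and IFI35 from -0.18 to 0.095. IFITM3 against untreated control ranged from -0.24 to 1.41. The smallest library allowed down to 0.747 CPM for a count of 0, which limits IFITM2, IFI44 and PLAC8.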

Other observations

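The genes beside the members in the RefSeq annotation were examined, a choice made after the members' values were seen. Of the nearest annotated genes on either side of the members, 6 were tested, FAM76A beside IFI6, IFI27L2 beside IFI27, RPL27 and VAT1 beside IFI35, ADGRL4 beside IFI44, and PTGFR beside IFI44L. Their log2 fold changes over reagent alone lay between -0.12 and 0.92, with a median of 0.016. The highest was ADGRL4, next to IFI44, at 0.92 over reagent alone and 1.27 over untreated control. FAM76A measured -0.12 beside 4.47 for IFI6. The neighbours of IFITM2 and RTP4, FGR beside IFI6 and ISG12(B) beside IFI27 were not tested, nor was LOC613699 beside IFITM1. The other neighbour of IFITM1, LOC777594, was not in the count table under that name. It may stand behind the row IFITM3 or IFITM3_1.

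LOC512486, the LOC gene most like IFITM1, stood at 7.99, 18.6 and 3.82 CPM across DPPA3 mRNA replicates 1 to 3, next to 2.49, 2.16 and 1.65 CPM under reagent alone and 1.13, 1.08 and 1.27 CPM without treatment. CYP2R1, a vitamin D 25-hydroxylase, measured 2.34, 4.61 and 3.48 CPM in the transfected libraries, against 0.996, 2.70 and 1.10 CPM under reagent alone and 0.81, 1.52 and 0.88 CPM without treatment, so its groups overlapped against reagent alone.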
